A study of Mus musculus with 6 samples.

Results

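The genes of the proteasome were compared between metaphase II (MII) oocytes of 2 kinds, those that matured in culture (in vitro, IVM) and those that matured in the animal (in vivo, IVO). Members were the Ensembl rows of the gene table whose symbol began with Psm, a letter from a to g and a digit, with 5 pseudogenes named -ps left out, and 51 of the 60193 rows met this rule. Of these, 8 were 20S alpha subunits, 11 were 20S beta subunits, 6 were 19S ATPases, 11 were 19S non-ATPase subunits, 5 were activators, 1 was an inhibitor and 7 were assembly chaperones. The remaining 2, Psmc3ip and Psme3ip1, were matched by the name rule but are not proteasome subunits. Psmc3ip encodes a cofactor of meiotic recombination. Both are included in counts over the 51 members and over those tested, and form a class of their own. Counts over the 49 proteasome genes leave them out.

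All oocytes came from ICR mice aged 42 to 45 weeks, an advanced reproductive age. The 3 IVM samples were oocytes collected at the germinal vesicle stage after PMSG priming, freed of cumulus cells and cultured for 12 h in M16 medium. The 3 IVO samples were ovulated oocytes taken from the oviduct 14 h after hCG and cleared of cumulus cells with hyaluronidase. Each sample was a pool of 20 MII oocytes from 3 mice, so the values are averages over oocytes, and a lower level in each oocyte cannot be told apart from fewer oocytes that held the transcript. The groups also differed in hormone treatment and in when and how the oocytes were stripped of cumulus cells. This was done by pipette before maturation in IVM and with hyaluronidase after ovulation in IVO. These differences cannot be told apart from the place of maturation.

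The proteasome degrades proteins tagged with ubiquitin. Its 20S core is a barrel in which rings of alpha subunits form the gate and rings of beta subunits form the chamber, with the proteolytic sites on the beta subunits encoded by Psmb5, Psmb6 and Psmb7. The 19S particle caps the core, binds and deubiquitinates substrates with its non-ATPase subunits, and unfolds them with a ring of ATPases. Meiosis in oocytes requires the proteasome, which destroys cyclin B and securin at the transition to anaphase. An assembled core contains equal numbers of each of its subunits, while the transcripts need not be equal.

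Expression was measured as FPKM, the authors' RSEM estimate of fragments on a gene, scaled to transcript length and library size. Low FPKM values lie on steps that are each worth 1 fragment, and the depth they imply was 16500000 to 19450000 fragments in the IVM and 17750000 to 18150000 in the IVO samples. The same steps implied fragments of 212.7 ± 4.6 bases on average in IVM and of 253.3 ± 9.2 bases in IVO (SD over 3 samples each), with no overlap. All 10 oocyte markers were present in every sample, and 4 of them (Zp1, Zp2, Zp3 and Nlrp5) were lower in IVO. Of 12 markers of cumulus and granulosa cells, 8 stayed under 1 FPKM in every sample, with Foxl2 and Cd44 at or near 0. The summed level of these 12 genes was 70.0 to 89.8 FPKM in IVM and 47.8 to 75.3 FPKM in IVO samples, and 1 of them, Nr5a2, was lower in IVO. Has2, Tnfaip6 and Ptx3, which mark the expansion of the cumulus, were too low to be tested, but all IVO values lay above all IVM values. Their highest values were 0.14, 0.14 and 0.03 FPKM in IVM and 0.37, 0.49 and 0.17 FPKM in IVO samples, respectively. These values rest on at most 27, 13 and 5 fragments per sample. Among all tested genes, 9.62% were separated in this direction. Ptgs2 of the same list overlapped between the groups, and Foxl2, Inha, Inhba, Amhr2 and Nr5a2 had lower means in IVO. Of 6 markers of oviduct epithelium, 5 stayed under 1 FPKM, with Pax8 and Foxj1 at or near 0. Their summed level was 2.93 to 3.16 FPKM in IVM and 3.40 to 5.76 FPKM in IVO samples, most of it Epcam, at 2.72, 2.88 and 2.69 FPKM in IVM and 2.87, 4.10 and 5.40 FPKM in IVO. The part of RNA from these cells in the results below was not tested.

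The groups were tested with limma, on the scale of log2(FPKM + 1), for the 18818 genes whose mean over the 6 samples reached 1 FPKM. A log2FC is the IVO minus the IVM mean on this scale, which understates changes of genes with low FPKM. A DEG had |log2FC| ≥ 1 and a Benjamini-Hochberg adjusted p under 0.05, two-sided. With 3 samples against 3, an exact permutation test of a single gene cannot give a p below 0.1.

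Of the 51 members, 42 reached a mean of 1 FPKM and were tested, and 9 were not (Psma8, Psmb8, Psmb9, Psmb10, Psmb11, Psmd13, Psme1, Psme2b and Psmg2). The test called 7 members lower in IVO and 0 higher. Among all tested genes, 17.9% were called lower and 0.606% higher, and among tested protein-coding genes 14.3% and 0.628%. The count for the whole family therefore lay near that of the other genes. The median log2FC of the 42 members was -0.29, beside -0.30 over all tested genes. At an unadjusted p under 0.05, 13 members were lower and 1 was higher, beside 31.4% and 5.56% of all tested genes.

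The members called lower were unevenly placed within the complex. They included 4 of the 7 tested 20S beta subunits (Psmb2, Psmb4, Psmb5 and Psmb7), 1 of the 7 tested alpha subunits (Psma5) and the inhibitor Psmf1. Among the members, none of the 16 tested 19S subunits, the 3 tested activators or the 6 tested chaperones was called in either direction by limma. At an unadjusted p under 0.05, 3 of these 19S subunits were lower and 0 higher. The last of the 7 was Psmc3ip, which is not a proteasome subunit. The median log2FC was -1.49 for the beta and 0.15 for the alpha subunits, and the difference between the classes was not tested.

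**Figure D1:**
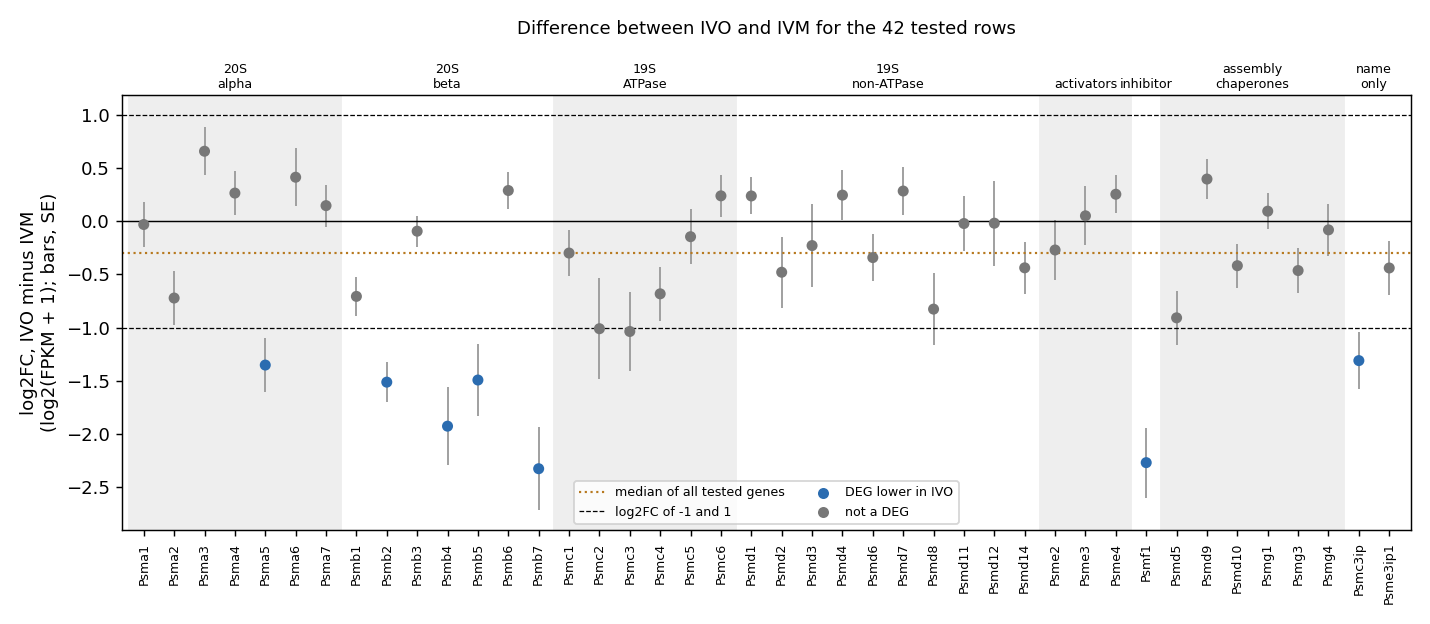
The log2FC between IVO and IVM (y axis, log2(FPKM + 1) scale, bars show the SE) of the 42 tested members, ordered by class on the x axis. The blue points are the 7 DEGs, of which 4 are beta subunits, and the dotted line is the median of all tested genes, at -0.30.

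Of the 3 proteolytic beta subunits, 2 were called lower and 1, Psmb6, was not. Psmb6, which carries the caspase-like site, had 225, 218 and 177 FPKM in IVM1 to IVM3 and 265, 222 and 271 FPKM in IVO1 to IVO3. These groups overlapped, and the log2FC was 0.29 (SE 0.18, limma adjusted p = 0.28). This result depended on the scaling, as given below. Psmb7, which carries the trypsin-like site, had 56.3, 19.2 and 23.3 FPKM in the IVM and 4.92, 4.59 and 5.71 FPKM in the IVO samples. Every IVO sample was below every IVM sample, IVM1 was the highest, and the log2FC was -2.33 (SE 0.39, limma adjusted p = 0.0074).

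Psmb5, which carries the chymotrypsin-like site and is the main target of proteasome inhibitors, was the least abundant of the 14 constitutive core subunits in each of the 6 samples. It had 9.69, 3.51 and 7.31 FPKM in IVM and 1.68, 1.81 and 1.38 FPKM in IVO samples. The groups did not overlap, with a log2FC of -1.49 (SE 0.34, limma adjusted p = 0.021). This call was the least stable of the 7, since it was kept in 1 of the 6 fits that left out a sample, the fit without IVM2, and in 7 of 17 alternatives in all. Its fragments numbered 16 to 109 per sample.

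Ratios between the proteolytic subunits within a library do not change when a library is multiplied by a single factor. Psmb7 over Psmb6 was 0.156 ± 0.084 in the IVM and 0.0201 ± 0.0014 in the IVO samples (SD, n = 3 each). Psmb5 over Psmb6 was 0.0334 ± 0.015 in the IVM and 0.00653 ± 0.0015 in the IVO samples (SD, n = 3 each). For both ratios, the highest IVO sample lay below the lowest IVM sample.

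Of the 4 noncatalytic beta subunits tested, Psmb2 and Psmb4 were called lower, and Psmb1 and Psmb3 were not. Psmb2 was the third most abundant member in IVM, with 677, 753 and 585 FPKM, and had 221, 205 and 280 FPKM in the IVO samples. The groups were far apart relative to their spread, and the log2FC was -1.51 (SE 0.19, limma adjusted p = 0.0027). Psmb4 had 44.8, 16.2 and 27.2 FPKM in IVM and 6.93, 5.0 and 7.44 FPKM in IVO, a log2FC of -1.93 (SE 0.37, limma adjusted p = 0.011). As for Psmb7, IVM1 was the highest sample, and the groups did not overlap.

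Psmb1 had 13.3, 12.0 and 12.4 FPKM in IVM and 7.55, 7.56 and 6.85 FPKM in IVO samples. Its log2FC of -0.71 (SE 0.18, limma adjusted p = 0.031) passed the p threshold but not the fold threshold of a DEG. With Psmd5, it brought the members with an adjusted p under 0.05 to 9 lower and 0 higher, beside 21.5% and 1.87% of all tested genes and 18.3% and 2.37% of the protein-coding ones. Psmb3 had the narrowest relative range of the tested beta subunits, with 212, 211 and 199 FPKM in IVM and 196, 185 and 202 FPKM in IVO samples (log2FC -0.09, SE 0.15, limma adjusted p = 0.69). Psmb2 over Psmb3 was 3.24 ± 0.32 in the IVM and 1.21 ± 0.16 in the IVO samples (SD, n = 3 each).

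**Figure D2:**
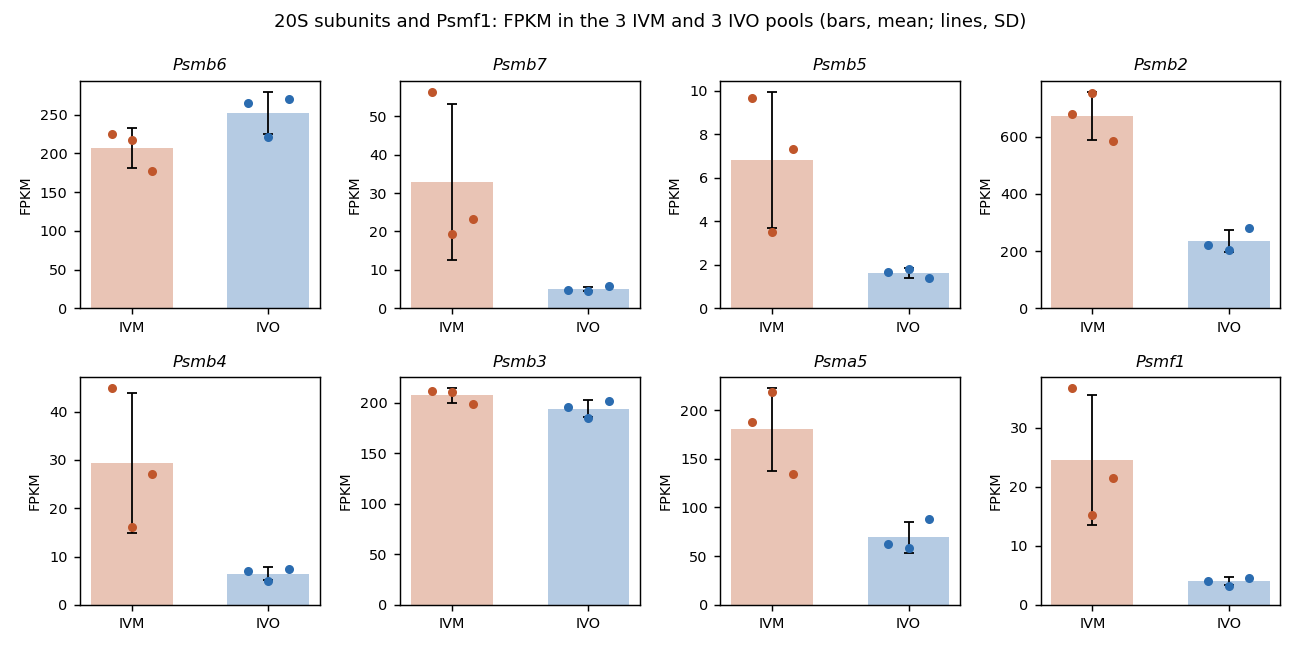
FPKM (y axis, each panel with its own scale from 0) of 7 core subunits and Psmf1 in the 3 IVM and 3 IVO pools, with points for pools, bars for means and lines for the SD. Psmb6 and Psmb3 overlap between the groups, while all 3 IVO points lie below all 3 IVM points for Psmb7, Psmb5, Psmb2, Psmb4, Psma5 and Psmf1.

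Among the alpha subunits, which form the gate and the surface that binds the caps, Psma5 was the only one called. It had 187, 218 and 135 FPKM in IVM and 62.9, 58.2 and 87.8 FPKM in IVO samples, with a log2FC of -1.35 (SE 0.25, limma adjusted p = 0.010). Its exons share bases with 1700010K24Rik, a lncRNA on the opposite strand that was itself lower in IVO, at 98.3, 97.5 and 51.2 FPKM in IVM and 15.2, 6.27 and 19.8 FPKM in IVO samples. The library kit keeps no strand, so reads from the shared bases cannot be told apart.

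Psma7 was the most abundant member by group mean in both groups, with 1018, 1250 and 1669 FPKM in IVM and 1379, 1397 and 1496 FPKM in IVO samples. The IVO values lay inside the range of the IVM values, and the log2FC was 0.15 (SE 0.20, limma adjusted p = 0.64). Psma2 came second, with 1163, 1484 and 801 FPKM in IVM and 588, 647 and 807 FPKM in IVO, and its groups overlapped by 1 sample. Its log2FC of -0.72 (SE 0.25, limma adjusted p = 0.079) missed the threshold.

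Psma3 had the most positive log2FC of the members, 0.66 (SE 0.23, limma adjusted p = 0.078). It had 50.6, 35.9 and 29.8 FPKM in IVM and 61.4, 59.7 and 60.01 FPKM in IVO samples, so that all IVO values lay above all IVM values. A processed pseudogene copy of Psma3, Gm13835, was listed at 1.45, 29.7 and 33.8 FPKM in IVM and 0, 5.13 and 0 FPKM in IVO samples. When the values of such copies were added to their parent genes, the log2FC of Psma3 became 0.04.

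Altogether, the 3 IVM and 3 IVO values did not overlap for 15 tested members that were lower in IVO and 2 that were higher, Psma3 and Psmd9. Among all tested genes, the share was 32.6% lower and 9.62% higher, and among protein-coding genes 28.9% and 12.7%.

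The transcripts of the core subunits were far from equal. Within single IVM samples, the most abundant of the 14 constitutive subunits had 120 to 423 times the FPKM of the least abundant. Within the IVO samples, the range was 772- to 1084-fold. Psmb5 was the lowest in all 6 samples, and the highest was Psma2 in IVM1 and IVM2 and Psma7 in the other 4. Every IVO sample thus had a wider range than every IVM sample. Each range is taken over Psmb5, so it carries the limits of that gene. Psmb5 rested on 16 to 109 fragments per sample, and its call was the least stable.

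**Figure D3:**
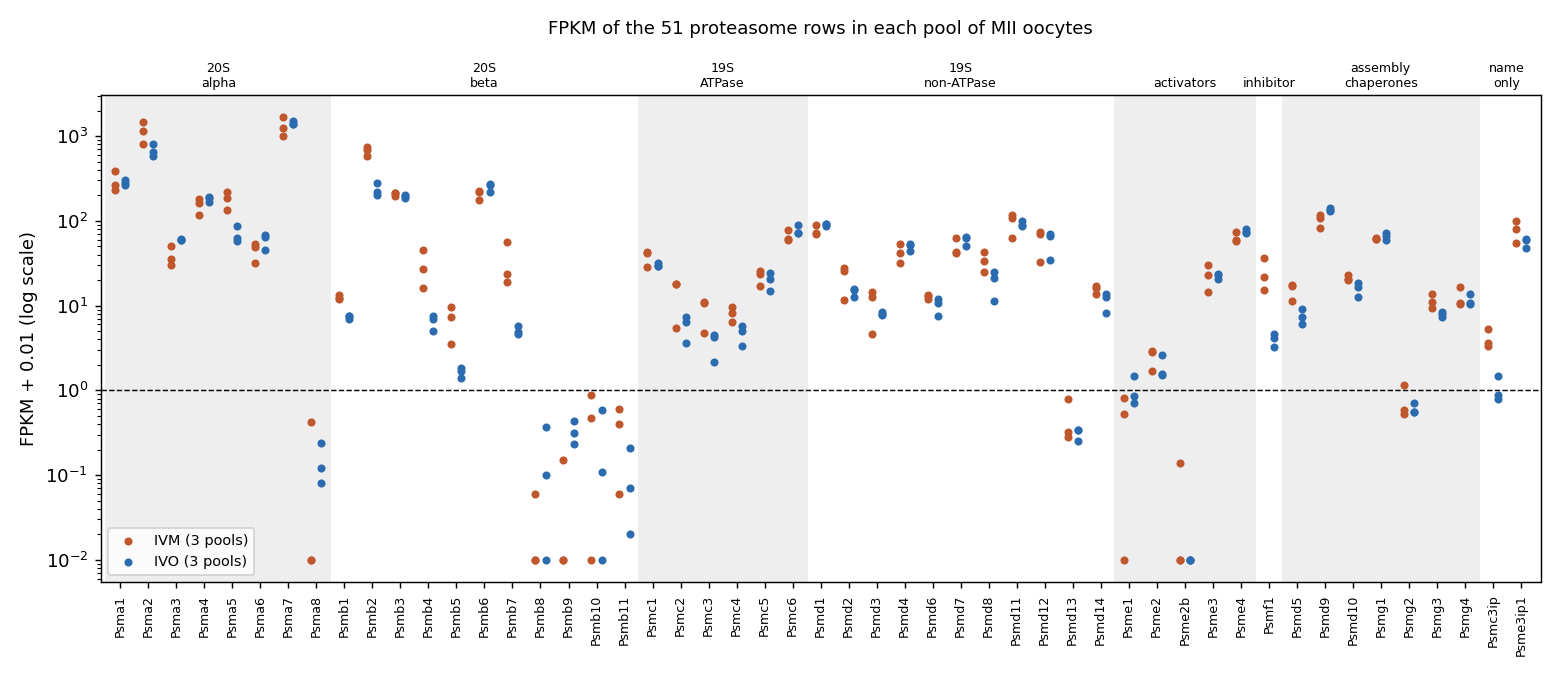
FPKM + 0.01 (y axis, log scale) of the 51 members in the 3 IVM and the 3 IVO pools, ordered by class on the x axis, with 1 point per pool and a dashed line at 1 FPKM. Core subunits reach from under 2 FPKM for Psmb5 in IVO to 1669 FPKM for Psma7 in IVM3, and the tissue-restricted subunits Psma8 and Psmb8 to Psmb11 lie below the line.

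The summed FPKM of the 20S beta subunits was 1168 ± 119 in the IVM and 703 ± 73 in the IVO samples (SD, n = 3 each), a ratio of IVO to IVM of 0.602. The corresponding sum of the alpha subunits was 3174 ± 394 in the IVM and 2759 ± 191 in the IVO samples (SD, n = 3 each), a ratio of 0.869, and these sums overlapped. The beta sum was dominated by Psmb2, Psmb3 and Psmb6. Most of its fall was that of Psmb2, from a mean of 672 FPKM in IVM to 235 FPKM in IVO. Psmb3 had means of 207 and 194 FPKM, and Psmb6 of 207 and 253 FPKM. The sum without Psmb2 was not computed, so the beta sum does not show a fall of the whole class. With median-ratio scaling, the ratio of the sums became 0.751 for beta and 1.09 for alpha. The direction of the alpha sum thus depended on the scaling, and that of the beta sum, with Psmb2 in it, did not. The 20S core made up 0.281% ± 0.024 of the Ensembl FPKM in the IVM and 0.266% ± 0.012 in the IVO samples (SD, n = 3 each), with overlap.

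Subunits that replace the constitutive ones in immune or germ cells were under 1 FPKM in every sample. The floor is the FPKM worth 3 fragments, and it accounts for counting error alone, because fragments from amplified cDNA are not separate molecules. Psmb8, the immunoproteasome counterpart of Psmb5, was listed at 0.05, 0 and 0 FPKM in IVM and at 0, 0.09 and 0.36 FPKM in IVO samples. It was above its floor of 0.109 to 0.129 FPKM in IVO3 alone, with 9 fragments. Beside the low level of Psmb5 itself, this made Psmb8 20.7% of the summed FPKM of both genes in IVO3 and 0% to 4.74% in the other samples. That sample also had the highest levels of the leukocyte markers Lyz2 (15.7 FPKM, beside at most 1.04 FPKM in the others) and Tyrobp (7.12 FPKM, beside at most 1.97 FPKM). Cd74 (3.43 FPKM, beside at most 0.55 FPKM), Adgre1 (0.29 FPKM, beside at most 0.09 FPKM) and Ptprc (0.16 FPKM, beside at most 0.06 FPKM) were also highest in IVO3. Cd68 was highest there by a small margin (2.29 FPKM, beside at most 2.07 FPKM). Cd52 was instead highest in IVO1 (1.75 FPKM, beside 0.83 FPKM in IVO3), where Psmb8 was at 0. Over the whole list of 8 leukocyte markers, the summed level was 69.2 to 95.6 FPKM in IVM and 24.8 to 59.5 FPKM in IVO samples. Most of it was H2-Aa, which was lower in IVO. The part of leukocyte RNA in the Psmb8 value was not tested.

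Psmb9, the counterpart of Psmb6, was at 0, 0.14 and 0 FPKM in IVM and at 0.42, 0.30 and 0.22 FPKM in IVO samples. All IVO values lay above all IVM values, but they rest on at most 8 fragments, and the gene was too low to be tested. Psmb9 made up at most 0.158% of the summed FPKM of Psmb9 and Psmb6 in any sample. Psmb10, the counterpart of Psmb7, was at 0.87, 0.46 and 0 FPKM in IVM and at 0.57, 0 and 0.10 FPKM in IVO samples, above its floor in 3 of 6. Its share of the summed FPKM of Psmb10 and Psmb7 was highest in IVO1, at 10.4%, and 0% in IVM3 and IVO2. Psmb11, the thymus-specific form, was at 0.39, 0.59 and 0.05 FPKM in IVM and at 0.06, 0.01 and 0.20 FPKM in IVO. It was above its floor of 0.0382 to 0.0451 FPKM in 5 of 6 samples, with at most 46 fragments, and the groups overlapped for Psmb8, Psmb10 and Psmb11. Of 6 interferon-induced genes fixed beside them, 3 stayed under 1 FPKM in every sample, including Tap1. It was at 0 in the IVM samples and at most 0.11 FPKM in IVO. Tap1 lies on the opposite strand to Psmb9 on chromosome 17, and their exons share bases. The library kit keeps no strand, so reads from these shared bases cannot be told apart. The summed level of the 6 interferon-induced genes was 120.5 to 161 FPKM in IVM and 75.4 to 102 FPKM in IVO samples, most of it B2m.

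Psma8, the germ-cell counterpart of Psma7 known from spermatocytes, was at 0, 0 and 0.41 FPKM in IVM and at 0.11, 0.23 and 0.07 FPKM in IVO samples. It was above its floor in 2 of 6 samples and made up at most 0.0246% of the summed FPKM of Psma8 and Psma7.

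The 19S ATPases, which unfold the substrate and open the gate of the core, had a median log2FC of -0.49 over 6 genes. Psmc3 had the most negative value, with 4.75, 11.01 and 10.7 FPKM in IVM and 4.30, 4.53 and 2.18 FPKM in IVO samples (log2FC -1.04, SE 0.37, limma adjusted p = 0.087). Psmc2 had 5.39, 17.9 and 18.2 FPKM in IVM and 6.38, 7.37 and 3.57 FPKM in IVO samples (log2FC -1.01, SE 0.47, limma adjusted p = 0.17). In both genes, IVM1 lay close to the IVO samples and away from the other IVM samples, opposite to Psmb7 and Psmb4, in which IVM1 was the highest. Without IVM1, both Psmc2 (log2FC -1.54) and Psmc3 (log2FC -1.38) were called lower, and the 19S count rose from 0 to 2 of 16. That share was near the one of all genes in this fit, 2350 of 18509 called lower. Psmc6, with 59.7, 78.3 and 60.4 FPKM in IVM and 72.1, 89.8 and 72.2 FPKM in IVO, had the most positive log2FC of the ATPases, 0.24 (SE 0.20, limma adjusted p = 0.43).

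The non-ATPase subunits of the 19S particle hold the ubiquitin receptors, the deubiquitinase Psmd14 and the scaffold. Their 10 tested members had log2FC between -0.83 and 0.28, with a median of -0.13. Psmd8, part of the lid, had the most negative value (-0.83, SE 0.34, limma adjusted p = 0.12), with 33.4, 24.6 and 43.1 FPKM in IVM and 20.9, 24.7 and 11.3 FPKM in IVO samples. The groups overlapped by a narrow margin. Psmd7, the partner of Psmd14 in the lid, had the most positive value (0.28, SE 0.23, limma adjusted p = 0.41), with 43.0, 41.2 and 63.3 FPKM in IVM and 51.1, 62.4 and 64.3 FPKM in IVO samples. Psmd14 itself had a log2FC of -0.44 (SE 0.24, limma adjusted p = 0.24).

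Psmd13, a lid subunit of which each proteasome cap holds a copy, was under 1 FPKM in every sample. It had 0.31, 0.78 and 0.27 FPKM in IVM and 0.33, 0.33 and 0.24 FPKM in IVO samples, which corresponds to 8 to 27 fragments and lay above its floor of 0.0867 to 0.103 FPKM in all 6 samples. It was the lowest of the 17 members of the 19S particle in each sample. The highest of these 17 had 100 to 430 times its level in IVM and 272 to 381 times its level in IVO samples. Sem1 and Adrm1, 19S subunits under other names, are not among the 17. The summed FPKM of the 19S particle was 575 ± 90 in the IVM and 554 ± 52 in the IVO samples (SD, n = 3 each), a ratio of 0.962, with overlap.

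None of the 3 tested activators, which cap the core in place of the 19S particle, passed the test in limma, nor did any at an unadjusted p under 0.05. Psme4, the PA200 activator known for histone degradation in germ cells, had 59.3, 57.9 and 73.8 FPKM in IVM and 81.1, 71.8 and 74.4 FPKM in IVO samples (log2FC 0.25, SE 0.18, limma adjusted p = 0.36). Psme3, the nuclear PA28 gamma activator, had 23.3, 14.5 and 30.1 FPKM in IVM and 20.7, 23.8 and 23.1 FPKM in IVO samples (log2FC 0.05, SE 0.28, limma adjusted p = 0.92). Neither gene separated the groups. The interferon-responsive pair of PA28 alpha and beta was much lower, with Psme1 at 0, 0.52 and 0.81 FPKM in IVM and 0.70, 0.85 and 1.46 FPKM in IVO. Psme2 was at 1.67, 2.86 and 2.91 FPKM in IVM and 2.60, 1.54 and 1.51 FPKM in IVO samples (log2FC -0.27, SE 0.28, limma adjusted p = 0.53). Psme2b was at or under its floor in every sample.

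Psmf1 encodes PI31, which inhibits the 20S core in vitro and serves as an adaptor for the transport of proteasomes in neurons. It had 36.7, 15.3 and 21.5 FPKM in IVM and 4.10, 3.27 and 4.63 FPKM in IVO samples. All IVO values lay below all IVM values, and the log2FC was -2.27 (SE 0.33, limma adjusted p = 0.0046). With Psmb4, it was called in each of the 18 alternatives tried.

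Assembly chaperones build the core and the base and leave before the particle is complete. Psmd5, which holds ATPases of the base, had 17.3, 11.2 and 16.9 FPKM in IVM and 7.39, 6.06 and 9.17 FPKM in IVO samples (log2FC -0.91, SE 0.25, limma adjusted p = 0.040). The groups did not overlap, but the fold threshold was missed, and Psmd5 was called in the fits without IVM2 and without IVO3. Psmd9, another base chaperone, had 109, 83.2 and 119 FPKM in IVM and 132, 133 and 140 FPKM in IVO samples (log2FC 0.40, SE 0.19, limma adjusted p = 0.18). Among the chaperones of the alpha ring, Psmg1 had a log2FC of 0.09, Psmg3 of -0.46 and Psmg4 of -0.08, none past the threshold, and Psmg2 stayed between 0.51 and 1.15 FPKM.

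Psmc3ip, matched by name alone, had 5.34, 3.59 and 3.36 FPKM in IVM and 0.88, 1.48 and 0.78 FPKM in IVO samples (log2FC -1.31, SE 0.27, limma adjusted p = 0.014). Without the name-only matches, 6 of the 40 tested proteasome genes were called lower, beside 17.9% of all tested genes. The median log2FC of the 40 was -0.25. Of these 40 genes, 8 were lower at a limma adjusted p under 0.05, beside 21.5% of all tested genes. At an unadjusted p under 0.05, 12 were lower, beside 31.4%. In 14 of them, all IVO values lay below all IVM values, beside 32.6%. These counts lay near the shares of all tested genes.

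How the libraries were scaled moved the whole family. Median-ratio scaling shifted the median log2FC of all tested genes from -0.30 to -0.04 and that of the 42 members from -0.29 to -0.02. The 7 calls remained, beside 11.3% of all tested genes called lower and 2.05% called higher. Another 2 members, Psma3 and Psmd9, had an adjusted p under 0.05 in the higher direction, beside 7.14% of all tested genes. Quantile normalization moved the median of all tested genes to 0.17, kept Psmb4, Psmb7 and Psmf1 as lower (8.40% of all tested genes) and called Psma3 higher (log2FC 1.16), beside 5.83% of all tested genes. Psmb6 had a log2FC of 0.81 in this fit (limma adjusted p = 0.015), under the fold threshold. It was among 9 members higher by adjusted p, beside 14.8% of all tested genes. The median log2FC of the 19S non-ATPases was -0.13 with the deposited values, 0.18 after median-ratio scaling and 0.37 after quantile normalization, so that its direction depended on the scaling, as did that of the assembly chaperones. The beta subunits kept a negative median (-1.19 by median ratios and -0.997 by quantiles) and the alpha subunits a positive one. Relative to the median of all tested genes, the beta subunits stood at -1.20 as deposited, -1.15 and -1.17 under these scalings.

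**Figure D4:**
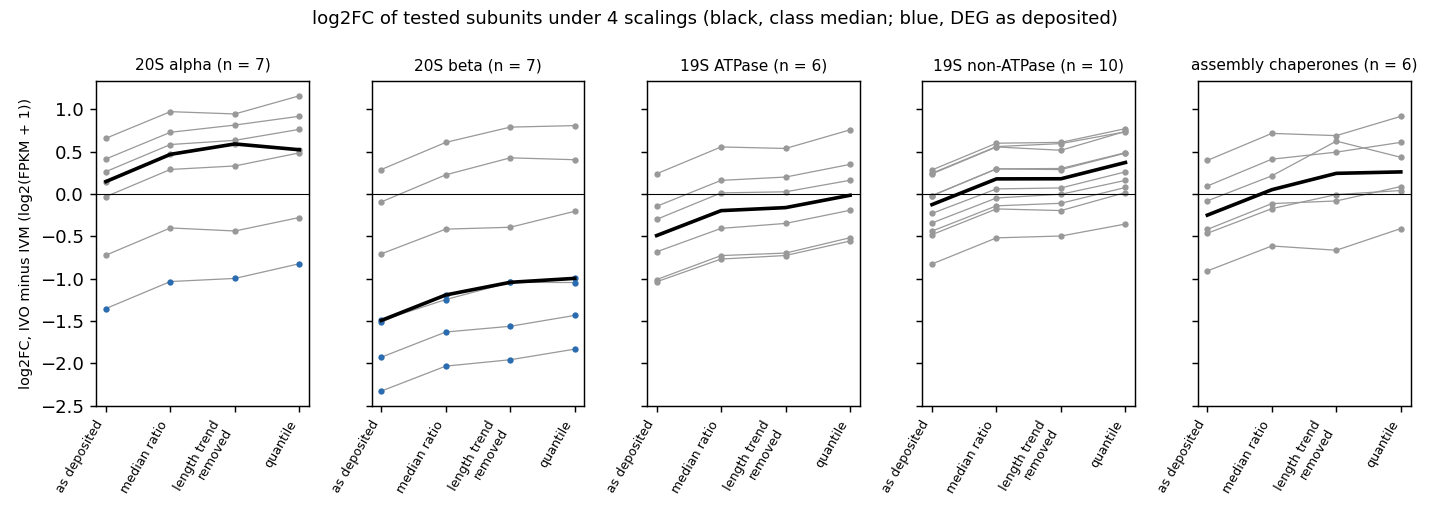
The log2FC between IVO and IVM (y axis, log2(FPKM + 1) scale) of the tested members of 5 classes under 4 ways of scaling the libraries (x axis), with 1 thin line per gene, the class median in black and blue points for genes called DEGs as deposited. All classes shift upward from the deposited values to the quantile normalization, and the beta median stays between -1.49 and -0.997.

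Since the fragment length differed between the groups, the trend of each library with gene length was also removed. This left 4 members called lower (Psmb2, Psmb4, Psmb7 and Psmf1), beside 6.98% of all tested genes, with Psma5 at a log2FC of -0.997, Psmb5 at -1.04 and Psmc3ip at -0.96. Psmb6 was at 0.79 (limma adjusted p = 0.021), under the fold threshold. Across the 40 tested proteasome genes, the log2FC and the log10 of the listed length had a Pearson's r of 0.17 and a Spearman's rho of 0.10, beside 0.12 and 0.078 across 10344 tested protein-coding genes. Genes are not independent replicates, and all points share the same 6 libraries.

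The members called lower do not lie together in the genome. In GRCm39, Psmb7 (ENSMUSG00000026750) lies at chr2:38478044-38534099 on the minus strand, Psmf1 (ENSMUSG00000032869) at chr2:151557732-151586119 on the minus strand and Psmb4 (ENSMUSG00000005779) at chr3:94781005-94794272 on the minus strand. Psma5 (ENSMUSG00000068749) lies at chr3:108164086-108187298 on the plus strand, Psmb2 (ENSMUSG00000028837) at chr4:126571423-126606667 on the plus strand and Psmb5 (ENSMUSG00000022193) at chr14:54850776-54855481 on the minus strand. The 51 members lie on 16 chromosomes. Exons of 27 members share bases with those of another gene, which lies on the opposite strand for 24 of them. Of the overlapping genes, Pogz (Psmb4), Nek6 (Psmb7) and Tmem74b (Psmf1) were under 1 FPKM in every sample. Psmb4 also overlaps Gm65701, a lncRNA on the opposite strand whose level was not analysed here.

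Proteasome genes are known to be induced together by the transcription factor NRF1 through antioxidant response elements when proteasome activity falls. The core of this element, TGACNNNGC, was searched on both strands from 250 bases before to 50 bases after the annotated start. It was found in 8 of 49 proteasome genes (16.3%), beside 12.5% of 21770 protein-coding genes. Of the 6 proteasome genes called lower, Psmb2 and Psmb5 held a match. The windows of the 3 beta subunits with a match are shown to set called and uncalled genes side by side, in GRCm39, 5′ to 3′ on the strand of the gene, with the match in capitals. They lie at chr14:54855480-54855509 (minus strand) for Psmb5, chr4:126571412-126571441 (plus strand) for Psmb2 and chr11:70416164-70416193 (plus strand) for Psmb6.
Psmb5: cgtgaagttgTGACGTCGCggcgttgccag
Psmb2: gccgcgccagTGACTGGGCcgtcgcgcgtc
Psmb6: ctaaagagagTGACGGAGCgctttacgacg
All 3 matches run forward, and they begin 18 bases before the start in Psmb5, 1 base before it in Psmb2 and 9 bases before it in Psmb6. Psmb2 and Psmb5 were called lower in IVO and Psmb6 was not, while Psmb4 and Psmb7 were called lower and held no match in this window. A match is a description of the letters and does not show that a factor binds there.

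Genes that act with the proteasome but carry other names were read from a list of 31, of which 30 were in the table and 28 were tested. The test called 3 of the 28 lower, among them Sem1, and 1 higher (Usp14), beside 17.9% and 0.606% of all tested genes. The count called lower thus did not exceed the share among all tested genes. The median log2FC was -0.17. Sem1, a small subunit of the 19S lid, had 188, 251 and 157 FPKM in IVM and 26.6, 30.5 and 40.3 FPKM in IVO samples (log2FC -2.57, SE 0.25, limma adjusted p = 0.0014). The groups were far apart, and among the 19S subunits tested under any name Sem1 alone was called with the values as deposited.

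Usp14, the deubiquitinase that docks on the 19S base, had 95.6, 83.6 and 81.5 FPKM in IVM and 172, 196 and 169 FPKM in IVO samples (log2FC 1.04, SE 0.17, limma adjusted p = 0.0063). All IVO values lay above all IVM values, and the call was lost in the fits without IVM3 and without IVO2, in which the log2FC was under 1.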

How the data were processed

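The deposited values are FPKM per gene and sample. Per the paper's methods and the labels, the authors made SMART-Seq v4 and Nextera XT libraries, trimmed the paired reads, aligned them to GRCm39 with HISAT2 2.1.0, and estimated FPKM with RSEM 1.3.3. The authors tested counts with DESeq2 1.24.0, and those counts were not used here. The groups were compared by limma 3.58.1 in R 4.3.3 (eBayes with trend, group alone) on log2(FPKM + 1), on all genes with a mean of at least 1 FPKM, without further scaling. Depth was inferred from genes of 500 to 4000 bases with a single transcript, where 82.1% to 84.2% of the low values lay within 0.2 of a whole fragment number. Members and lists were chosen with earlier results of these data known. All members could be named, and values per sample are given for DEGs, catalytic and exchange subunits, activators and the extremes of each class, and for Psma2, Psmb1, Psmb3, Psmc2, Psmd5, Psmd9 and Psmd13, which were chosen after their values were seen. Annotation and promoters were read from GRCm39 with GENCODE M39. Some genes of the pathway list are not reported here. Replicate numbers did not pair the samples. Tables and plots used Python 3.11.15, pandas 2.3.3, scipy 1.17.1 and matplotlib 3.10.9.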

Additional observations from a re-analysis of the deposited data

Results flagged for a closer look

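Signal appeared in rows outside the proteasome comparison that carry the orthology identifier of a member, most of them processed pseudogenes. Of 58 such rows, 34 were listed at 0 in all samples, and 5 were above their floor of 3 fragments in all 6. Gm5232, a copy of Psmb3, had a mean of 27.6 FPKM, and Gm6995, also a copy of Psmb3, had 1.29 FPKM. Gm3375, a copy of Psmb5, had a mean of 3.15 FPKM, which is close to that of Psmb5 itself (4.23 FPKM). Gm4118, a copy of Psma2, had a mean of 0.85 FPKM, and A730017L22Rik, annotated as a lncRNA and listed with Psmd11, had 0.728 FPKM. Whether these reads came from the copies or from the parent genes was not tested.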

How the results depend on the processing

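As deposited, 7 members were called lower and 0 higher, beside 3366 and 114 of all tested genes. Of the values that answer a comparison, 271 stayed within their limits and 51 moved. Median-ratio scaling gave 2130 lower and 385 higher genes over all, 2 members higher by adjusted p, class medians of 0.47 (alpha) and 0.051 (chaperones), and ratios of summed FPKM of 1.09 (alpha), 0.751 (beta), 1.13 (19S ATPase), 1.23 (19S non-ATPase), 1.42 (activators) and 1.35 (chaperones). Scaling to the same FPKM sum gave 2131 and 397 genes, 2 members higher by adjusted p, and medians of 0.48 (alpha) and 0.067 (chaperones). As a share of the Ensembl sum, the ratios were 1.03 (alpha), 0.714 (beta) and 1.28 (chaperones). Quantile normalization gave 1580 and 1097 genes, 3 members called lower and 1 higher, 5 lower and 9 higher by adjusted p, 2 other pathway genes higher, medians of 0.52 (alpha), -0.015 (19S ATPase), 0.37 (19S non-ATPase), 0.53 (activators) and 0.26 (chaperones), and a log2FC of Psme2 of 0.16. Removing the length trend gave 1314 and 909 genes, 4 members lower, 3 higher by adjusted p, medians of 0.59 (alpha) and 0.24 (chaperones), and 0.16 for Psme2. With Ensembl rows alone, 1972 genes were lower among fewer tested genes. Without the filter, the beta median, now with the low immune forms, was -0.28. In fragments in place of FPKM, Psmb9 was 0.211% of Psmb9 and Psmb6, and Psma8 was 0.0180% of Psma8 and Psma7, in IVO.

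Same-numbered samples did not deviate together (correlations of -0.062, -0.018 and -0.107). The replicate block kept 7 members lower. The block with the length trend removed gave 627 and 350 genes, 2 members lower by call and by adjusted p, medians of 0.59 (alpha) and 0.24 (chaperones), and 0.16 for Psme2.

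When a sample was left out, 6 to 8 members were called lower and 0 to 1 was higher by adjusted p (1 without IVM1), and of the other pathway genes 2 to 5 were lower (5 without IVO3) and 0 to 1 higher. The log2FC ranged from -0.021 (without IVM1) to 0.33 (without IVM3) for Psma7 and from -0.22 (without IVM2) to 0.28 (without IVM3) for Psme3. With copies added, chosen after seeing the data, 6 members were called lower, without Psmb5. The cause of these moves was not tested. Depth limits the rows under 1 FPKM, which rest on few fragments.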

Other observations

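Maternal mRNAs that are translated during meiotic maturation often carry cytoplasmic polyadenylation elements near their 3′ end. The letters TTTTAT or TTTTAAT, chosen after the data had been seen, were searched in the last 100 bases of annotated 3′ ends. They were found in 6 of 41 proteasome genes with an end of this length (14.6%), beside 16.9% of 19715 protein-coding genes and 19.3% of the 9791 tested ones. Among the members called lower, 1 of 6 held a match, Psma5, beside 4 of 28 tested members that were not. Of the assembly chaperones, 3 of 6 held one (Psmg1, Psmg2 and Psmg3), and of the 19S subunits 0 of 14 did. These are descriptions of sequence and were not tested.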
